A study of Mus musculus with 6 samples.

Results

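Of 170444 regions formed by joining the MeDIP-seq peaks of 6 samples of mouse primary mesangial cells, 397 had a peak in all 3 control samples and in no TGF-β1-treated sample. Joining required an overlap of 1 bp or more between peaks of any samples, and the regions called only in control were selected on the resulting calls alone. They made up 0.233% of all regions. The reverse pattern, with a peak in all 3 TGF-β1-treated samples and none in control, was met by 1616 regions (0.948%). The study compared 3 control samples with 3 samples that received TGF-β1 at 10 ng/ml for 72 h. All cells were kept at passages 3 to 6 in medium with high glucose (25.5 mM) and serum, and the labels name no genotype. The treatment protocol in the labels states TGF-β1 for the control samples too, so the groups rest on the sample titles and the treatment tag. The study calls the samples replicates, but the labels do not say that they came from separate cultures or animals, so the spread between them may be technical. The peak lists hold no expression values, so the cell type could not be checked against marker genes.

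Methylated DNA immunoprecipitation uses an antibody to capture sheared DNA that carries 5-methylcytosine, and the captured fragments are sequenced. In mammalian DNA most of this mark sits on the cytosine of CpG dinucleotides, so the signal depends largely on the number of CpG sites and on their methylation. Mesangial cells are the contractile support cells of the kidney glomerulus, and TGF-β1 is a cytokine that drives them to deposit matrix in diabetic kidney disease. A peak that is missing from a list fell below the calling threshold in that sample, which is not the same as unmethylated DNA.

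The 6 members with the highest mean control pileup are shown first because their reference sequence holds the CpG sites that the antibody could have captured. Pileup is the number of extended reads that cover a peak summit. Each line gives the 200 bases around the mean control summit on the plus strand of mm9, from intron 12 of Slc38a1 (chr15:96411036-96411235), downstream of Nrp1 (chr8:131080394-131080593), intron 1 of Plcd3 (chr11:102945442-102945641), exon 25 of Ubr2 (chr17:47098494-47098693), intron 4 of Rilpl1 (chr5:124956202-124956401) and intron 1 of Snx30 (chr4:59831164-59831363). Capitals mark CpG dinucleotides.
Slc38a1: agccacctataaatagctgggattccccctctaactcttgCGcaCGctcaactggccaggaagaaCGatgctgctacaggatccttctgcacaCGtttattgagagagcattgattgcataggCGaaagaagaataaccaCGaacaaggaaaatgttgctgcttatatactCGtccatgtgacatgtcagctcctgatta
Nrp1: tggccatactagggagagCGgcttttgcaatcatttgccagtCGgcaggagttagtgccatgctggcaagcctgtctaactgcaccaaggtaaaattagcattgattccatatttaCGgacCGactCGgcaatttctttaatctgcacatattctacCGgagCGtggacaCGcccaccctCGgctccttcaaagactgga
Plcd3: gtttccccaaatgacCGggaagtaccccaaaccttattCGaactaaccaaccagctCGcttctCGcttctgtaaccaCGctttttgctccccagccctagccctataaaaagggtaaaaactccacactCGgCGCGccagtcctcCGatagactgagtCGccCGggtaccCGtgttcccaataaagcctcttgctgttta
Ubr2: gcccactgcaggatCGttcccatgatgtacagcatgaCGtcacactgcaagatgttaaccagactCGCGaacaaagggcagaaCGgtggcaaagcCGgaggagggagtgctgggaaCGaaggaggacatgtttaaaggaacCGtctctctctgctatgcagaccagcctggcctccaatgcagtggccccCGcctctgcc
Rilpl1: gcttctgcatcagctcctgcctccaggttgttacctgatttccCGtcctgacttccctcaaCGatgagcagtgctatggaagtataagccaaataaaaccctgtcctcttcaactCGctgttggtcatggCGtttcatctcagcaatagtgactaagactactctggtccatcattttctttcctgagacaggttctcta
Snx30: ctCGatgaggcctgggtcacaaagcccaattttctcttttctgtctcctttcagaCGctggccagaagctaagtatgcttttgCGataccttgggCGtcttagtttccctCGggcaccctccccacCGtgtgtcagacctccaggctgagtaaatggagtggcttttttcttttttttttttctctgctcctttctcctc
These windows held 7, 9, 12, 9, 4 and 6 CpG sites in the order printed. The windows of Slc38a1 and Nrp1 had 9 and 5 similar copies in 20 Mb of chromosome 19 (BLAST hits of at least 100 bp), that of Rilpl1 had 4, and those of Plcd3, Ubr2 and Snx30 had 0. Reads were kept by the study only where they mapped to a unique place.

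Sequencing depth ran from 9407103 to 11494356 reads in the control libraries and from 12634300 to 13291419 reads in the TGF-β1-treated ones, so the depth of a library and its treatment cannot be told apart. The lowest pileup of any called peak was 8 reads in each control library and 9 or 10 reads in those after TGF-β1. Calls were made at a q of 0.01 against local background, so the pileup needed for a call differed between places. A missing call therefore does not mean a pileup below these values.

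The regions called only in control carried low pileup. Their median was 16 reads in control replicate 1 (10 to 38), 15 reads in replicate 2 (9 to 44) and 17 reads in replicate 3 (10 to 48), and the middle 50% spanned 14 to 19, 13 to 18 and 15 to 20 reads. Per 1000000 reads of the library the medians were 1.55, 1.59 and 1.48, so the 3 samples lay close together once depth was taken out. Fold enrichment, the pileup over the local background that the peak caller estimates, had medians of 5.87, 5.79 and 5.60. The members were 0.487%, 0.441% and 0.395% of the peaks of the 3 control samples.

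**Figure D1:**
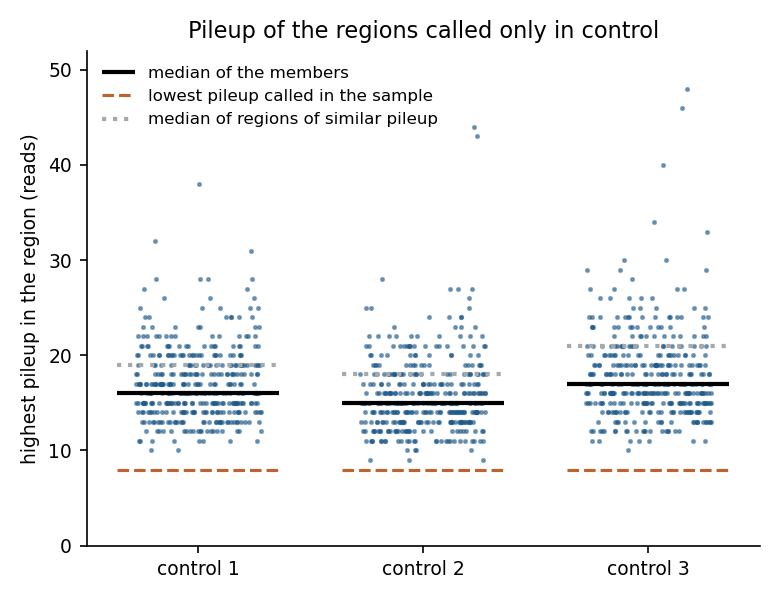
Highest pileup (reads, y axis) of each of the 397 members in control replicates 1, 2 and 3 (x axis, points spread sideways for sight). Black lines are the members' medians (16, 15 and 17 reads), dotted lines the medians of regions of similar pileup called in all 6 samples (19, 18 and 21 reads) and dashed lines the lowest pileup called (8 reads). Most points sit between the dashed line and 25 reads, and few exceed 30.

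Regions of similar pileup served for comparison. They were the 17965 regions called in all 6 samples whose mean control pileup lay between 12.7 and 23 reads, the 5th to 95th percentile of the members. Within that range they still had the higher pileup, with a median of 19.3 reads against 16.3 in the members. Local background was alike, at a median of 1.83 reads in members and 1.80 in the comparison. In control replicates 1, 2 and 3, 35.5%, 38.0% and 40.1% of members stood on the genome-wide background, the lowest value that the peak caller allows, against 34.4%, 36.8% and 39.0% of the comparison regions. The control peaks of the members had a median length of 312 bp against 359 bp, and the joined regions 367 bp against 467 bp, where the comparison regions join up to 6 samples and the members 3. The 3 control summits of a member lay a median of 57 bp apart at their extremes, against 58 bp in the comparison.

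The share of regions without any TGF-β1 peak fell steeply with control pileup, which the calling threshold of the rule fixes in part. Of 49140 regions called in all 3 control samples, 397 (0.808%) had no TGF-β1 peak, 1630 (3.32%) had a peak in 1 TGF-β1-treated sample, 5369 (10.9%) in 2 and 41744 (84.9%) in 3. With a mean control pileup below 15 reads, 114 of 2255 regions (5.06%) were called only in control. Between 15 and 20 reads it was 223 of 12947 (1.72%), between 20 and 25 reads 49 of 13204 (0.371%), and between 25 and 30 reads 8 of 8973 (0.0892%). At 30 reads or more it was 3 of 11761 regions (0.0255%, 95% exact binomial interval 0.00526% to 0.0745%, for counting error only). Pileup below the threshold is not in the lists, so the members have no value after TGF-β1.

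**Figure D2:**
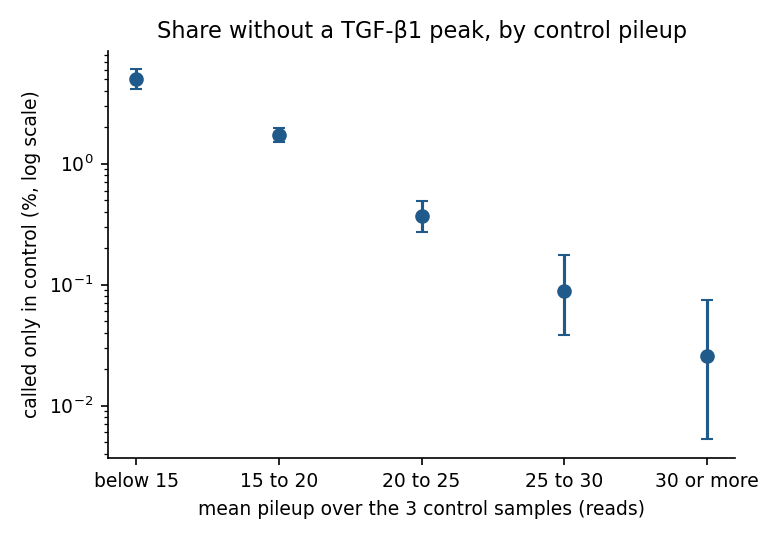
Share of regions called in all 3 control samples that had no TGF-β1 peak (%, log scale, y axis) by mean control pileup in reads (x axis). Points are shares and bars 95% exact binomial intervals for counting error; the share falls from 5.06% below 15 reads to 0.0255% at 30 reads or more.

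Of the 3 members at 30 reads or more, 2 were intronic and 1 lay between genes. The highest was in intron 12 of 15 of Slc38a1, which encodes a glutamine transporter (chr15:96410975-96411323), at 38, 44 and 48 reads in control replicates 1, 2 and 3. Its fold enrichment was 3.78, 4.50 and 4.27, below the members' medians, because the local background there was 9.59 reads. A region called in all 6 samples lay 1840 bp away, with 39, 45 and 55 reads in control and 52, 49 and 57 reads after TGF-β1. The groups overlapped in that neighbour.

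The member near Nrp1, the gene of a co-receptor for semaphorins and VEGF (chr8:131080401-131080719, 51039 bp from the gene), had 32, 43 and 40 reads. A region called in all 6 samples began 496 bp away, with 74, 62 and 78 reads in control and 72, 78 and 89 reads after TGF-β1. The member in intron 1 of 14 of Plcd3, a phospholipase C gene (chr11:102945343-102945754), had 31, 27 and 46 reads, of which control replicate 3 stood apart. TGF-β1 replicate 2 had a peak of 37 reads only 255 bp from it.

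Lower in the order, Ubr2, which encodes a ubiquitin ligase, held a member in coding exon 25 of 47 (chr17:47098389-47098712) at 25, 28 and 30 reads. Rilpl1, a gene of a RILP-like protein (chr5:124956186-124956497), had 22, 26 and 34 reads. Snx30, which encodes a sorting nexin (chr4:59831054-59831419), had 27, 27 and 24 reads. Over the 3 control samples the SD was 2.52 reads in Ubr2, 6.11 in Rilpl1 and 1.73 in Snx30, so Rilpl1 varied most of these. Acacb, the gene of a mitochondrial acetyl-CoA carboxylase (chr5:114601187-114601534, intron 1), had 27, 22 and 29 reads. Ust, the gene of a sulfotransferase of dermatan and chondroitin sulfate (chr10:7971354-7971675, intron 5), had 25, 24 and 27 reads.

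Ranked by the lowest fold enrichment of the 3 control samples, different members led, and their pileup was moderate. A region 23735 bp from Vmn1r155, a vomeronasal receptor gene (chr7:23418956-23419302), had fold enrichments of 7.82, 7.03 and 8.70 at 19, 16 and 23 reads. Its window held 0 CpG sites and had 10 or more similar copies in the searched part of chromosome 19. Intron 3 of Arfip1, which encodes arfaptin 1 (chr3:85070430-85070786), had fold enrichments of 7.82, 7.03 and 6.89. A region 193719 bp from Cdkn2b, the gene of a cyclin-dependent kinase inhibitor (chr4:89150660-89151003), had 9.39, 7.86 and 6.71. A region far from genes, 1414745 bp from Sis (sucrase-isomaltase, chr3:71277364-71277734), had 6.65, 6.62 and 7.98. Intron 7 of Gabpb2, which encodes a subunit of the GA-binding protein (chr3:94997136-94997511), had 6.59, 6.69 and 7.25. The last of the 6, 19051 bp from the predicted gene Gm17492 (chr4:9874030-9874420), had 6.65, 8.27 and 6.53.

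At the other end, the 3 members with the lowest mean pileup had 9 to 13 reads in control. Their -log10 q ran from 3.67 to 6.29, where calls were made at a q of 0.01. A region 17931 bp from Zfp462, a zinc finger gene, had 12, 10 and 11 reads, a region 13580 bp from Rngtt, the gene of the mRNA capping enzyme, had 13, 9 and 11 reads, and intron 17 of Megf6 had 10, 12 and 12 reads. The regions that just missed the rule included far stronger ones. With a peak in all 3 control samples and in TGF-β1 replicate 1 alone, a region on unplaced sequence had 69, 66 and 66 reads in control and 71 after TGF-β1, an intron of the chaperonin gene Cct2 had 38, 43 and 41 reads and 44, and a region near the kinase gene Pim1 had 33, 42 and 43 reads and 36. In each the called TGF-β1 pileup lay within 2 reads of the control range or inside it.

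Some members had a TGF-β1 peak close by that did not touch the region. Such a peak lay within 200 bp of 17 members, within 1000 bp of 83 (20.9%) and within 10 kb of 329 (82.9%), at a median of 3442 bp. The nearest was 6 bp from a member near Tbx3, a T-box gene (12, 12 and 15 reads in control and 19 reads in the neighbouring peak of TGF-β1 replicate 1). Next came a member near the Ras-like gene Diras2, with a TGF-β1 peak 36 bp away, and an intron of the RhoGAP gene Dlc1, with one 56 bp away. When a TGF-β1 peak within 1000 bp counted as a call, 314 of the 397 members remained. The same distances are not given for the comparison regions, so nothing is read from these shares.

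In gene elements the members resembled the regions of similar pileup. By the mean control summit, 183 members (46.1%) were intergenic and 154 (38.8%) intronic, against 47.1% and 39.1% of the comparison. Coding exons (CDS) held 21 members (5.29% against 6.80%), untranslated regions 4 (1.01% against 1.35%) and the 2 kb downstream of genes (Down2k) 15 (3.78% against 2.80%). The 2 kb upstream (Up2k) held 20 members, 5.04% (95% exact binomial interval 3.10% to 7.67%) against 2.92% of the comparison and 2.61% of the regions called only after TGF-β1. Leaving out 1 sample loosened the rule and gave larger sets, of 817 to 1866 regions. Their Up2k share was lower in every case, from 3.18% (without control replicate 3) to 4.28%. These sets include many regions that are not members, so they do not test the members' share. Regions are not replicates, so no test was made of these shares. The intergenic members lay a median of 34.0 kb from the nearest protein-coding gene, against 40.6 kb in the comparison. In all, 219 members lay within 2 kb of 226 protein-coding genes, a count that is not given for the comparison and only describes the members.

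**Figure D3:**
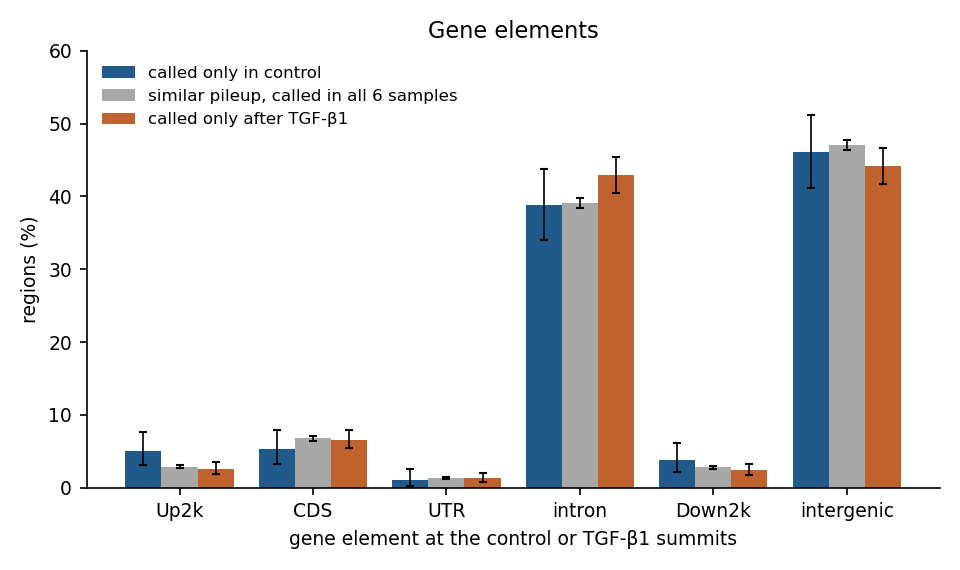
Share of regions (%, y axis, from 0) in each gene element (x axis) for the 397 members, the regions of similar pileup called in all 6 samples and the regions called only after TGF-β1, with 95% exact binomial intervals for counting error as bars. The members' bars match the comparison closely in introns (38.8% against 39.1%) and between genes (46.1% against 47.1%). Up2k shows 5.04% against 2.92% (3.18% to 4.28% in the larger sets formed without 1 sample, not drawn).

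Among the members in coding sequence, Ubr2 came first, followed by Wisp3, which encodes a matricellular CCN protein, with 26, 18 and 23 reads in exon 4 of 5 (chr10:38872878-38873219). The gene 5930434B04Rik had 21, 21 and 22 reads, in coding sequence of a shorter transcript and in intron 3 of the longest one. Igf1r, the receptor of insulin-like growth factor 1, had 21, 17 and 26 reads in exon 6 of 21 (chr7:75328212-75328571). Spg11, which encodes spatacsin, had 25, 15 and 20 reads in exon 10 of 40 (chr2:121922781-121923178), and Nuak2, a kinase of the AMPK family, 18, 20 and 19 reads in exon 7 of 7 (chr1:134228258-134228703). No member in coding sequence other than Ubr2 reached a mean of 25 reads.

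Upstream of genes, the strongest member lay near Cdkl4, a cyclin-dependent kinase-like gene (chr17:80964318-80964672, summits 1340 bp before the start), at 24, 24 and 25 reads. A region called in all 6 samples lay 595 bp from it, with 23, 40 and 56 reads in control and 54, 42 and 45 reads after TGF-β1. A member with its summits 453 bp before the start of Il10, the gene of the cytokine interleukin-10 (chr1:132915797-132916127), had 20, 15 and 22 reads. Eif4ebp1, a repressor of cap-dependent translation (chr8:28369329-28369692), had 21, 21 and 13 reads at 1279 bp before the start, where control replicate 3 was the low sample although it was the deepest control library. Cnnm3 had 20, 15 and 17 reads at 1890 bp before its start, in a stretch that also lies within 2 kb of its neighbour Cnnm4. The members assigned to Taok3 (18, 22 and 23 reads) and Tspan5 (22, 18 and 19 reads) lay before the start of a shorter transcript and inside the longest one.

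Few members lay within 2 kb of genes of the pathways usually followed in TGF-β1-treated mesangial cells, and few regions of any kind lay there. Of 42 genes of TGF-β and BMP signalling, 1 did. It was Smad4, the shared mediator of both branches, with 15, 16 and 18 reads in intron 11 (chr18:73799981-73800334). The list took 0.252% of members against 0.173% of the comparison regions and 0.235% of all joined regions. Of 25 mesangial and contractile genes, 1 had a member, Myocd, a coactivator of serum response factor, with 14, 12 and 16 reads in intron 1. This list took 0.252% of members, against 0.0671% of the comparison regions and 0.0737% of all joined regions, and nothing is read from 1 member. No member lay within 2 kb of the 43 collagen and matrix genes, 30 integrin and laminin genes, 49 Wnt and Notch genes, 25 genes of podocytes, tubules and endothelium, 30 genes of DNA methylation and polycomb or the 28 imprinted genes found in the annotation. The comparison regions had 0.319%, 0.179%, 0.251%, 0.101%, 0.134% and 0.0950% there, so fewer than 2 members per list would stand there at the same shares, and nothing is read from their absence.

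The members were scattered over the genome. Of 4341 pairs of members on the same chromosome, 6 (0.138%) lay within 100 kb of each other, against 0.208% of the pairs of comparison regions, and within 1000 kb it was 1.89% against 1.88%. The median distance to the next member was 1739 kb. Chromosomes 1 and 5 held 35 members each and chromosome 12 only 6 (1.51% of members against 4.16% of comparison regions), and per 1000 joined regions the count ran from 0.869 on chromosome 12 to 3.19 on chromosome 14 among the autosomes. The closest pair, 5655 bp apart, lay in intron 7 of Fbxl13, an F-box gene, with 17, 18 and 20 reads in one member and 24, 18 and 19 reads in the other. Spg11 had members in exon 38 (20, 15 and 15 reads) and exon 10, 41789 bp apart. Further close pairs joined an intron of Atg5 with a region downstream of that gene, a pair of regions beyond Etnk1, and a region near Micalcl with intron 1 of Parva. Besides Fbxl13 and Spg11, Auts2 and Tspan5 had 2 members within 2 kb.

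The members had fewer CpG sites than regions of similar pileup, and a similar GC content. The 200 bp around the mean control summit had a median GC content of 48.5% against 49.0% in regions of similar pileup. The median number of CpG sites was 5 against 6 and the mean 4.97 against 6.15. Regions called only after TGF-β1 had a median of 5 and a mean of 5.68. Regions with a peak in 3 control samples and 1 TGF-β1-treated sample had a median of 5 and a mean of 5.18, close to the members. When the regions called in all 6 samples were weighted to the members' control pileup, the mean was 5.76. Windows without any CpG site were also more frequent: 24 members (6.05%, 95% exact binomial interval 3.91% to 8.86%) had none, against 0.816% of the comparison regions and 0.993% of the regions called only after TGF-β1. The share was 2.02% over all joined regions, 2.41% with a peak in 3 control samples and 1 TGF-β1-treated sample, 2.81% in regions called in 1 TGF-β1-treated sample alone and 5.86% in those called in 1 control sample alone. The last value is close to that of the members.

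**Figure D4:**
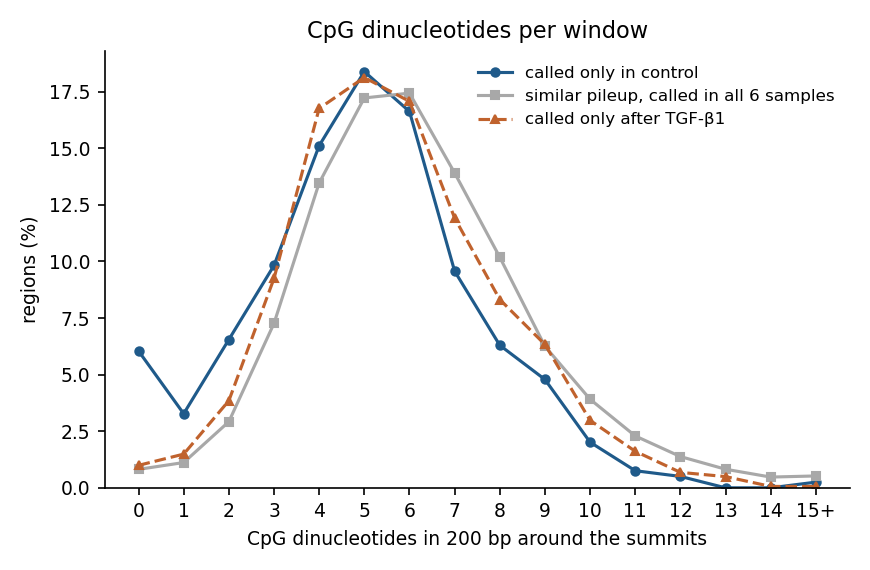
Share of regions (%, y axis, from 0) by the number of CpG dinucleotides in the 200 bp around the summits (x axis, 15 or more pooled) for the 397 members, the regions of similar pileup and the regions called only after TGF-β1. The members' curve lies to the left of that of similar pileup and has a separate rise at 0 CpG sites, 6.05% against 0.816%.

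Many of these windows were tandem repeats of short units. This feature was noticed after the sequences of the members had been examined. A window was called a tandem repeat where at least 70% of its bases equalled the base 1 to 6 positions before. By that measure 26 members (6.55%, 95% exact binomial interval 4.32% to 9.45%) were tandem repeats, against 1.02% of regions of similar pileup and 0.807% of regions called only after TGF-β1. No CpG site was present in 14 of the 26. The repeat unit was 6 bases in 9 members, 4 bases in 7, 2 bases in 6, 5 bases in 3 and 1 base in 1. Of the 26 windows 18 were intergenic and 7 intronic. One of them is printed to show the structure of such a window. It lies near 1700091H14Rik (chr14:43401736-43401935), on the plus strand of mm9 with CpG dinucleotides in capitals.
1700091H14Rik: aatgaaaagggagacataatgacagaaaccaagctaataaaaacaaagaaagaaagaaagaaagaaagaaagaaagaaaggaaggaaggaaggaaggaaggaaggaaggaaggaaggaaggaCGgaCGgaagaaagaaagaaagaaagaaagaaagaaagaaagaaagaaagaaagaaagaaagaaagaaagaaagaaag
Pileup at this member was 14, 14 and 22 reads, highest in control replicate 3, and the window held 2 CpG sites in a run of 4-base units.

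Tandem repeats were more frequent where pileup was low, and below 20 reads their share was higher in the members than in regions of the same pileup called in all 6 samples. Below 15 reads of mean control pileup, 15 of 114 members (13.2%, 95% exact binomial interval 7.56% to 20.8%) were tandem repeats, against 2.58% of regions called in all 6 samples. Between 15 and 20 reads it was 10 of 223 (4.48%, 2.17% to 8.09%) against 1.13%. Regions with a peak in all 3 control samples and 1 TGF-β1-treated sample lay between them in both ranges, at 8.62% and 2.73%. At 20 reads or more, 1 of 60 members was a tandem repeat (1.67%, 0.0422% to 8.94%), against 2.53% with 1 TGF-β1 peak and 0.516% called in all 6 samples. Regions called in 1 control sample alone had 4.52%, those called in 1 TGF-β1-treated sample alone 1.83%. Without the 26 tandem repeats, the remaining 371 members had a mean of 5.22 CpG sites against 6.17 in the comparison regions without tandem repeats. The same mean was 5.30 in regions with a peak in 3 control samples and 1 TGF-β1-treated sample. It was 5.03 in regions called in 1 control sample alone and 4.96 in those called in 1 TGF-β1-treated sample alone. At least 5 similar copies in the searched part of chromosome 19 were found for 12.3% of members and 18.6% of the comparison regions. The share was 14.7% in regions called only after TGF-β1. How well the search finds copies of tandem repeats was not tested.

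The same feature was then measured in the peaks outside every region called in all samples of 1 group only. These peaks come from the same 6 libraries in which the feature was noticed, so they are not an independent check. Tandem repeats made up 1.22%, 1.31% and 1.66% of these peaks in control replicates 1, 2 and 3 and 1.11%, 0.936% and 0.955% in TGF-β1 replicates 1, 2 and 3. The groups did not overlap. The mean was 1.40% ± 0.233 (SD, n = 3) in control and 1.0% ± 0.0941 (SD, n = 3) after TGF-β1, a difference larger than either SD (exact permutation test, two-sided, p = 0.1, which is the smallest value that groups of 3 can give). Per 1000000 reads, the tandem repeat peaks numbered 121 ± 24.2 in control and 77.8 ± 7.49 after TGF-β1 (SD, n = 3; exact permutation p = 0.1). Windows without CpG sites made up 1.42% ± 0.215 and 1.08% ± 0.0977 of the peaks (SD, n = 3; exact permutation p = 0.1). In regions called in all 6 samples the tandem repeat share was 0.706% ± 0.0428 in control and 0.672% ± 0.0187 after TGF-β1, and the groups overlapped (SD, n = 3; exact permutation p = 0.4). Every control library was the shallower, and the part of depth in these shares cannot be told apart from treatment.

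**Figure D5:**
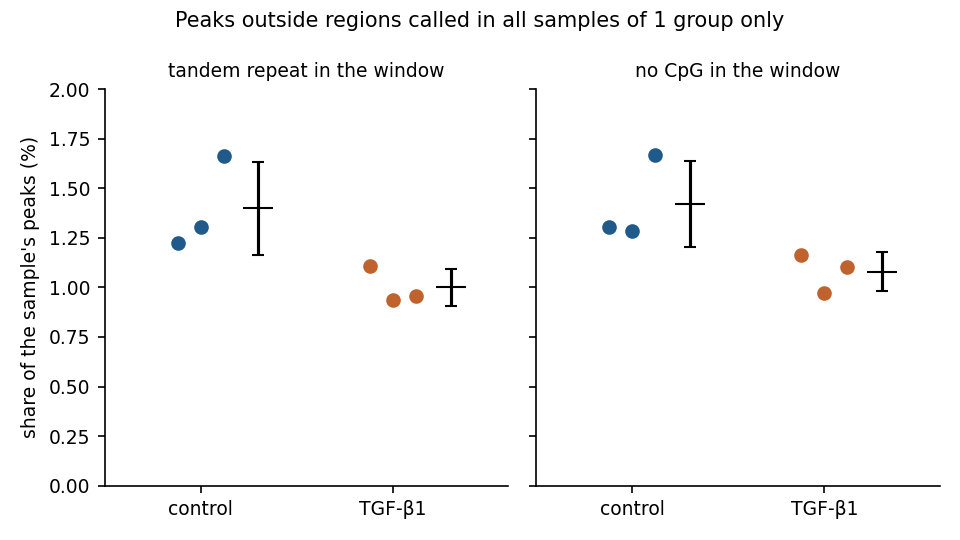
Share of each sample's peaks (%, y axis, from 0) that are tandem repeats (left) or hold no CpG site (right), outside regions called in all samples of 1 group only. Points are the 3 samples of each group, and horizontal marks with bars the mean and SD; the control samples lie between 1.22% and 1.66% for tandem repeats and the TGF-β1-treated samples between 0.936% and 1.11%.

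Other peaks around the members were as frequent after TGF-β1 as in control or more so, relative to the number of peaks in each library. Peaks within 10 kb of a member that overlapped no member made up 0.480%, 0.470% and 0.487% of the peaks in control and 0.483%, 0.522% and 0.498% after TGF-β1. The means were 0.479% ± 0.00821 and 0.501% ± 0.0196 (SD, n = 3), and the groups overlapped (exact two-sided permutation test, p = 0.2). Within 5 kb the share was 0.190% ± 0.0102 in control and 0.225% ± 0.0147 after TGF-β1, with no overlap between the groups (SD, n = 3; exact permutation p = 0.1). Per 1000000 reads the order within 10 kb was the opposite, at 41.9 ± 3.69 peaks in control and 39.9 ± 1.5 after TGF-β1 (SD, n = 3; exact permutation p = 0.5). Peaks of the members themselves, all of them from control samples, were left out of these counts. A TGF-β1 peak beside a member was counted, so the rule fixes part of these differences and nothing is concluded from the p-values.

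Within 10 kb of 162 members (40.8%) lay a region called in all 6 samples, 200 such regions in all, and none of them passed the test of pileup between the groups. The share of comparison regions with such a neighbour is not given here. Pileup was compared over all 41744 regions called in all 6 samples by limma on the log2 scale after each sample was centred on its median, and 0 of the 200 had an adjusted p (Benjamini-Hochberg) below 0.05, with 0% of all 41744. At an unadjusted p below 0.05 there were 8 of 200 (4.0%), 5 higher and 3 lower after TGF-β1, against 4.18% of all regions. The split by direction depended on the scaling and on the regions fitted. After division by reads, 0 neighbours were higher and 10 lower, against 212 higher and 2387 lower over all regions. Over the 98681 regions called in at least 3 samples, members included, a missing call took the lowest pileup of its library. There 18 of 489 neighbours were higher and 5 lower, against 2879 higher and 1231 lower over all 98681. In the main fit the median log2 difference of TGF-β1 minus control was -0.02 in the 200 neighbours and -0.0047 over all 41744 regions.

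The neighbour with the smallest p lay 6048 bp from the Rilpl1 member (chr5:124962546-124963234), at 29, 35 and 41 reads in control and 24, 27 and 29 reads after TGF-β1, a log2 difference of -0.60 ± 0.19 (SE; limma adjusted p = 0.999). Its groups touched at 29 reads. The shared region 7913 bp from the Plcd3 member had 43, 46 and 59 reads in control and 52, 39 and 42 reads after TGF-β1 (-0.37 ± 0.17, SE; limma adjusted p = 0.999). In the other direction, the shared region 8867 bp from the Smad4 member had 24, 15 and 27 reads in control and 34, 36 and 36 reads after TGF-β1, without overlap (0.50 ± 0.21, SE; limma adjusted p = 0.999). The shared region 8595 bp from the exon 10 member of Spg11 had 17, 15 and 23 reads in control and 29 reads in each TGF-β1-treated sample (0.46 ± 0.21, SE; limma adjusted p = 0.999). Pileups in reads are not corrected for depth, while the log2 differences are centred.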

How the data were processed

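MeDIP-seq peaks of 6 samples of mouse primary mesangial cells, 3 control and 3 TGF-β1-treated, were used, with groups and replicate numbers from the sample labels. Per the file headers and the study's methods, the authors mapped reads to mm9 with BWA, kept uniquely mapped reads, counted reads with the same start once and ran MACS2 2.1.0.20150731 on each sample separately at a q of 0.01 without input. The pileup deposited is a signal in reads without correction for depth, the deposited fold enrichment a ratio to local background, and deposited p- and q-values are -log10 values. Depth (9407103 to 13291419 reads per sample) limits the precision of the calls.

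The members and the gene lists were chosen with earlier results of these data known. Joining gave the same 170444 regions with bedtools 2.31.1. Sequence and annotation were NCBIM37, the assembly of mm9, with GENCODE vM1, and unplaced sequence was left out of the sequence and element counts. Elements were assigned at the mean control summit from protein-coding transcripts, in the order CDS, Up2k, Down2k, UTR and intron. Copies were searched with BLAST 2.17.0. Calculations used Python 3.11.15, and limma 3.58.1 in R 4.3.3 with an intensity trend on log2 highest pileup per region. On simulated data at the means and spreads of the 41744 shared regions, limma recovered 192 of 200 regions changed by 2 on the log2 scale, with 9 false calls. Smaller changes, such as the -0.60 of the Rilpl1 neighbour, were not simulated, so the power to find them is not known. Values per sample were compared by exact permutation over 20 assignments, and the members' own values were not tested. Same-numbered samples had correlations of -0.0464, 0.0432 and -0.130 between their deviations from the group means, below 0.1, so the main fits used no pairing. Whether same-numbered samples shared a culture or batch is not stated in the labels and cannot be told from these values.

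Members were named by rule: the 8 with the highest mean pileup, the 6 with the highest lowest-of-3 fold enrichment, the 6 highest in CDS and in Up2k, those near a listed gene, those in pairs within 100 kb, the 3 lowest and the 3 nearest to a TGF-β1 peak, with 3 regions just outside the rule. Some of these members, 1 gene list and some sequences are not reported here. Alternatives were stricter peaks, other joining, flanks, scalings and comparison regions, omission of each sample, and a replicate block. Those on tandem repeats, and the omission of samples for sequence and elements, were chosen after seeing the data.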

Additional observations from a re-analysis of the deposited data

How the results depend on the processing

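The count of 397 regions called only in control became 391 at a -log10 q of at least 5 in every sample, 339 with that limit in control only, 521 with a minimum fold enrichment of 5, 389 on chromosomes 1 to 19, 390 with peaks up to 200 bp apart joined and 314 without TGF-β1 peaks within 1000 bp. Of the members, 224 (56.4%) remained with that fold enrichment and 339 (85.4%) with the stricter q. Leaving out 1 sample loosened the rule, so a larger count followed from the rule itself. The count then ran from 819 (without TGF-β1 replicate 2) to 1873 (without control replicate 1). It was 1390 and 1228 without control replicates 2 and 3, and 900 and 1109 without TGF-β1 replicates 1 and 3. At least 395 of the 397 members remained in each case. Tandem repeats made up 4.43% to 5.46% of these larger sets, which include many regions that are not members. At limits of 60% and 80% in place of 70%, they made up 11.8% and 2.02% of members against 2.36% and 0.391% of regions of similar pileup. The difference in tandem repeat peaks per sample kept its direction in every alternative, from -0.485 to -0.266 percentage points without 1 sample. The difference in peaks within 10 kb ran from 0.0117 to 0.0312 percentage points without 1 sample and turned to -2.02 peaks per 1000000 reads (exact permutation p = 0.5); the cause was not tested. Over whole regions the members had a median of 4.08 CpG sites per 200 bp and 47.7% GC, against 4.73 and 47.2% in the comparison. The larger sets formed without 1 sample had median GC from 47.5% to 50%, and CDS from 4.49% to 8.79% (highest without control replicate 1). By any overlap of the region, CDS took 10.1% of members. Pairs within 1000 kb were 1.89%, and all regions called in all 6 samples had 0.227% of pairs within 100 kb.

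The median log2 difference of the neighbouring shared regions was -0.12 after division by reads, against -0.096 over all regions. It ran from -0.04 to 0.01 without 1 sample, with the change of sign without TGF-β1 replicate 2. Over neighbours called in at least 3 samples, with missing calls filled by the lowest pileup, it was 0.062, against 0.049 over all such regions. The calls and the fill fix part of that sign. Unadjusted p-values below 0.05 were met by 23 of 489 neighbours over regions called in at least 3 samples, 40 of 982 within 50 kb, and 3 to 11 of 200 without 1 sample (3 without control replicate 1, 5 without TGF-β1 replicate 2). No neighbour passed the adjusted threshold in any of these fits. With the replicate number as a block, 8 neighbours had an unadjusted p below 0.05 (median -0.02), the difference in peaks within 10 kb was 0.0221 percentage points (exact sign-flip p = 0.25, the smallest that 3 pairs allow) and that in tandem repeat peaks -0.398 (exact sign-flip p = 0.25), so the block changed no call. Pileup below the calling threshold is not in the lists, so the size of the difference at the members could not be measured.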

Other observations

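Besides protein-coding genes, 9 members overlapped lincRNA genes, 8 processed transcripts and 2 pseudogenes of the annotation. The shares over all regions are not given for these types, so the counts only describe the members. No member lay on chromosome Y, where the comparison regions had 0.0782% of their number, and 8 lay on chromosome X. Of the regions called in all 3 TGF-β1-treated samples, 2.55% had no control peak, against 0.808% of the regions called in all 3 control samples that had no TGF-β1 peak.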
